A study of Mus musculus with 6 samples.

Results

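The 10 genes described here encode parts of the actin cytoskeleton and of the brush border, the dense carpet of microvilli on the apical surface of proximal tubule cells. They are Actb and Actg1 (actins), Tpm1, Tpm2 and Tpm4 (tropomyosins), Tagln and Tagln2 (transgelins), Flna (a filamin), Myl9 (a myosin light chain) and Vil1 (villin 1). They were taken by gene symbol from a table of 32544 genes, each symbol matched 1 row, and all 10 passed the filter on low values together with 14301 other genes (14311 in all). Polyadenylated RNA was sequenced from proximal tubules dissected by hand (segments S2 and S3, downstream of the glomerular end) from C57Bl/6 mice that the series calls control mice. The mice of the AA group received a single injection of aristolochic acid I at 3 mg/kg, those of the DMSO group received dimethyl sulfoxide, the solvent, and kidneys were taken 24 h later in both. Aristolochic acid I, from birthwort plants, damages the proximal tubule and forms bulky adducts on DNA. Each group had 3 libraries, each from 5 to 10 pooled tubules of a kidney. The labels leave the sex and age of the mice unstated, and do not tell if different mice gave the 3 libraries of a group. The p-values therefore measure only the spread between these libraries, which may be technical.

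Actin filaments are polymers of actin along which tropomyosins lie end to end, and the tropomyosin on a filament influences which other proteins can bind it. Filamins and alpha-actinins crosslink filaments, non-muscle myosin II pulls on them, and villin bundles them inside microvilli. Many genes of this machinery are targets of serum response factor (SRF), which binds the CArG box and is switched on by its MRTF cofactors when free actin monomers become scarce.

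Libraries held 13304877 to 31136251 reads. Proximal tubule markers were abundant in every library, with a summed level of 30400 to 43550 CPM (reads of a gene scaled to a common library total) in AA and 34960 to 51140 CPM in DMSO over 16 genes, of which 1 was higher and 7 were lower in AA. The largest part of that sum was Kap, an androgen-regulated kidney gene, and without it the other 15 summed to 8850 to 10490 CPM in AA and 15740 to 21360 CPM in DMSO, with no overlap. Mitochondrial genes took 4.82% to 8.72% of reads in AA and 4.01% to 10.1% in DMSO. Of all tested genes, 22.3% were higher and 8.66% were lower in AA (limma, Benjamini-Hochberg adjusted p under 0.05), and the median log2 fold change was 0.21. Scaling all libraries to the same median, called the median-equalised fit, gave 1606 higher and 2422 lower genes in place of 3187 and 1239. DMSO replicates 1 and 2 differed from the rest in some genes: 29 genes had at least 1 CPM in each of the other 4 libraries and under 0.1 CPM in both of these, and 7 genes showed the reverse. No such count for another split of the libraries is given for comparison. A fit that models these library sets (the library-set fit), in which the AA effect rests on DMSO replicate 3 alone, is therefore given where its call differs. Resting on so few libraries, this fit can lose a call without a smaller log2 fold change.

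Promoter sequences were found for 8 of the 10 genes in a table from RefSeq (GRCm38.p6, 250 bases before to 50 bases after a gene's start). Actb and Tagln had no entry there, so their promoters were not searched. A CArG box, searched on both strands, was present in 3 of them, those of Actg1, Myl9 and Vil1, and in 1.63% of all 32851 promoters in the table. These stretches are shown because Actg1 passed the test described next while Myl9 and Vil1 did not. The box is in capitals with 30 bases on either side, and each stretch is given 5′ to 3′ on the strand of the gene. Distances are from the gene start in RefSeq, with that from the GENCODE M21 start, used for the gene coordinates given further on, in brackets. The Actg1 box began 90 (43) bases before the start (stretch at chr11:120348546-120348615, minus strand), the Myl9 box 161 (117) bases before it (chr2:156775273-156775342, plus strand) and the Vil1 box 73 (65) bases before it (chr1:74409281-74409350, plus strand).
Actg1: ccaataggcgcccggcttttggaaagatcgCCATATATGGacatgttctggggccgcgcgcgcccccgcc
Myl9: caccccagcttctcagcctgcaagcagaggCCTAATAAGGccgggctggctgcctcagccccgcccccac
Vil1: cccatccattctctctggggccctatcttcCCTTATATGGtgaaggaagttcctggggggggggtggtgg
The letters GGAATG, the core of the TEAD motif, were in the promoters of Tagln2, Tpm1 and Flna on either strand, and in 14.66% of all promoters; in these 3 genes the letters lie inside the gene as GENCODE M21 draws it. The AP-1 letters TGANTCA were in 0 of the 8 and in 7.81% of all promoters. These matches describe letters only.

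Of the 10 genes, 5 were higher in AA (Actg1, Tpm4, Tagln, Tagln2 and Flna), 0 were lower and 5 did not pass. Over all tested genes 22.3% were higher and 8.66% lower, and these shares also stand beside the list and marker counts below. At an unadjusted p under 0.05, and with voom of limma on the recovered reads, 0 of the 10 were lower as well. The increases of the 5 genes ran from 1.63-fold to 2.48-fold on the log2(CPM + 1) scale. Adding 1 shrinks the fold change of weakly expressed genes. The median log2 fold change of the 10 was 0.66, beside 0.21 for all tested genes. In 7 of the 10 every AA library lay above every DMSO library, which held for 33.4% of all tested genes, and in 0 of the 10 every AA library lay below, against 13.0%. In the median-equalised fit 4 of the 10 passed as higher, against 11.2% of all tested genes. In the library-set fit 2 passed (Tpm4 and Flna), against 7.39%. In bulk RNA, fewer cells of a type and less RNA per cell cannot be told apart.

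**Figure D1:**
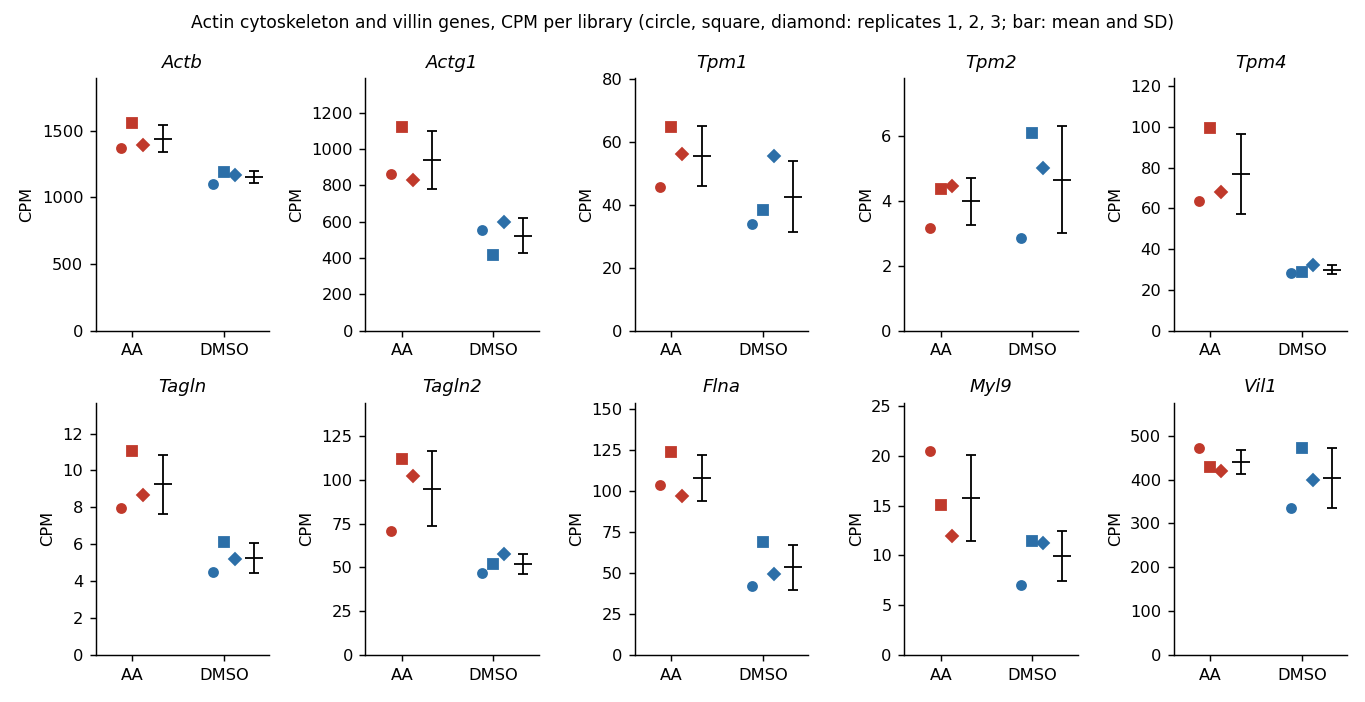
CPM of the 10 genes in each AA and DMSO library, 1 panel per gene with its own linear axis from 0; points are libraries and bars give mean and SD (n = 3). AA lies above DMSO without overlap in 7 panels, while Tpm1, Tpm2 and Vil1 overlap.

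The cytoplasmic actins form the filaments of non-muscle cells. Actb, the gene of beta-actin (chromosome 5, 142903115 to 142906754, minus strand; mm10), had 1373, 1554 and 1395 CPM in AA replicates 1, 2 and 3 and 1102, 1189 and 1169 CPM in DMSO replicates 1, 2 and 3. All AA values exceeded all DMSO values, but the log2 fold change of 0.32 (SE 0.16) did not pass (limma adjusted p = 0.142). It was 0.06 in the median-equalised fit, and after quantile normalization it passed at 0.52 (adjusted p = 0.0334).

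Actg1, the gene of gamma-actin (chromosome 11, 120345690 to 120348542, minus strand), had 862, 1122 and 832 CPM in AA and 555, 417 and 598 CPM in DMSO. The groups did not overlap, and the log2 fold change was 0.84 (SE 0.18, limma adjusted p = 0.00624). It was 0.64 in the library-set fit, where it did not pass (adjusted p = 0.122), and without the low-value filter its adjusted p was 0.104.

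Within each library the CPM of Actg1 came to 62.8%, 72.2% and 59.6% of that of Actb in AA, and to 50.3%, 35.1% and 51.2% in DMSO. The means were 64.8% ± 6.53 in AA and 45.5% ± 9.06 in DMSO (SD, n = 3 each), with no overlap. The exact two-sided permutation p was 0.10, the smallest that 3 against 3 libraries allow (0.14 adjusted over 7 such ratios). The coding sequences of the actins are nearly identical and have pseudogene copies, so reads may be shared between them and each level is uncertain to that extent. The pseudogene Actg-ps1 was listed at 0.718 to 2.08 CPM in AA and 0.460 to 0.877 CPM in DMSO.

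Reads of the muscle actin genes were few. Acta2, the smooth muscle alpha-actin gene, had 5.19, 5.05 and 3.88 CPM in AA and 3.22, 1.80 and 2.51 CPM in DMSO, with a log2 fold change of 0.71 that did not pass (SE 0.26, limma adjusted p = 0.0577). Actg2, the enteric smooth muscle actin gene, was below the filter at 0.00 to 0.17 CPM in AA and 0.00 to 0.19 CPM in DMSO. Among 6 actin genes listed 3 were tested, and of these Actg1 passed. With a pseudocount of 5 CPM Acta2 passed as well, at 0.37 on the log2 scale (adjusted p = 0.0485).

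Of the 3 tropomyosin genes among the 10, Tpm4 passed, and Tpm1 and Tpm2 did not. Tpm4 (chromosome 8, 72134975 to 72153142, plus strand), which encodes short tropomyosins of non-muscle cells, had 63.4, 99.5 and 67.8 CPM in AA and 28.5, 28.9 and 32.3 CPM in DMSO. AA replicate 2 was highest, and the lowest AA library still had more than 1.5 times the highest DMSO library. Its log2 fold change, 1.31 with an SE of 0.18 (limma adjusted p = 0.000547), was the largest of the 10 genes and passed under all 17 alternative settings, with log2 fold changes of 1.05 to 1.43.

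Tpm1 (chromosome 9, 67022590 to 67049406, minus strand), which yields muscle and non-muscle tropomyosins by alternative splicing, had 45.7, 64.8 and 56.1 CPM in AA and 33.8, 38.4 and 55.3 CPM in DMSO. The groups overlapped at DMSO replicate 3, and the log2 fold change of 0.39 (SE 0.20) did not pass (limma adjusted p = 0.154). It was -0.01 in the library-set fit, and without DMSO replicate 3 it passed at 0.60 (adjusted p = 0.0355).

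Tpm2 (chromosome 4, 43514711 to 43523765, minus strand), the gene of the beta-tropomyosin of muscle, was low at 3.16, 4.38 and 4.45 CPM in AA and 2.85, 6.10 and 5.01 CPM in DMSO. The groups overlapped throughout, and the log2 fold change was -0.14 (SE 0.28, limma adjusted p = 0.731). Its counts were low, at 42 to 190 reads per library.

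Tpm3, the remaining tropomyosin gene of the genome and not among the 10, had 211, 239 and 242 CPM in AA and 91.7, 102 and 111 CPM in DMSO, which is higher by 1.18 on the log2 scale (SE 0.13, limma adjusted p = 0.000148). Of the summed tropomyosin CPM, Tpm1 made up 14.1%, 15.9% and 15.2% in AA and 21.5%, 22.0% and 27.1% in DMSO. Tpm4 made up 20.8% ± 3.21 in AA and 16.8% ± 1.19 in DMSO (SD, n = 3 each). Tpm3 made up 63.1% ± 3.85 in AA and 57.0% ± 2.13 in DMSO, and Tpm2 1.08% ± 0.114 in AA and 2.59% ± 0.842 in DMSO. For each of the 4 shares the AA and DMSO libraries did not overlap, with an exact permutation p of 0.10 and 0.14 adjusted over the 7 ratios. The gap was narrow for Tpm3 (58.6% in AA replicate 2, 58.5% in DMSO replicate 1). It was also narrow for Tpm4 (18.3% in AA replicate 3, 18.1% in DMSO replicate 1). The shares sum to the whole, so the 4 are not separate results. Shares are of CPM, so they also carry the lengths of the transcripts.

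**Figure D2:**
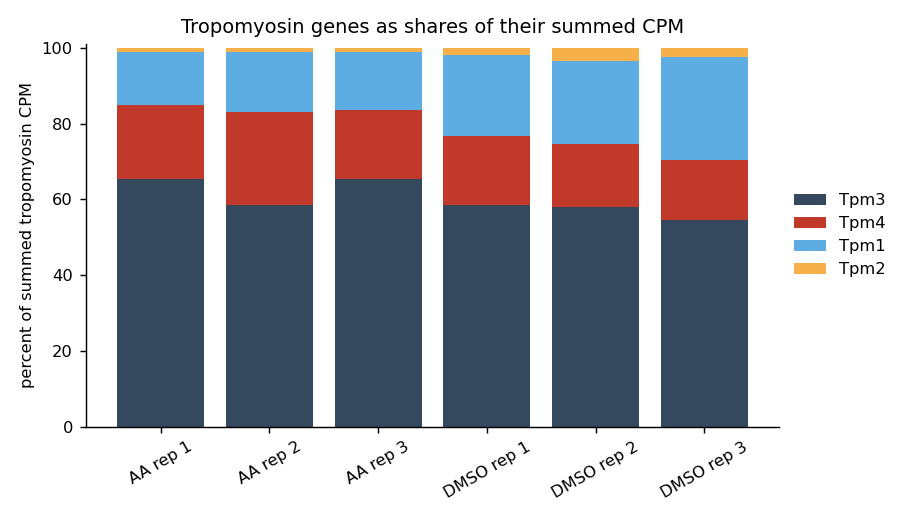
Percent of the summed tropomyosin CPM from Tpm3, Tpm4, Tpm1 and Tpm2 in each AA and DMSO library, stacked to 100. The Tpm1 band spans 14.1% to 15.9% in the AA libraries and 21.5% to 27.1% in the DMSO libraries.

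Of 8 tested tropomyosin, tropomodulin and leiomodin genes 3 were higher and 0 were lower, with a median log2 fold change of 0.48. The third was Tmod3, whose product caps the slow-growing end of filaments (38.0 ± 2.88 CPM in AA and 25.7 ± 5.29 CPM in DMSO, SD, n = 3; log2 fold change 0.56, limma adjusted p = 0.034). Its call was lost in the median-equalised fit (adjusted p = 0.237) and in the library-set fit (log2 fold change 0.27). It was also lost without any 1 of AA replicates 1, 2 and 3 and DMSO replicates 1 and 2. In each of the first 2 fits 2 genes of the list, Tpm3 and Tpm4, were higher.

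Transgelins are small actin-binding proteins related to calponin. Tagln2 (chromosome 1, 172500047 to 172507380, plus strand), the broadly expressed form, had 70.8, 112 and 102 CPM in AA and 46.6, 51.6 and 57.8 CPM in DMSO. The groups did not overlap, and the log2 fold change was 0.84 (SE 0.18, limma adjusted p = 0.00602). It was 0.68 in the library-set fit (adjusted p = 0.105), and without the low-value filter its adjusted p was 0.106.

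Tagln (chromosome 9, 45929619 to 45936058, minus strand), also called SM22 alpha and best known from smooth muscle, had 7.97, 11.1 and 8.69 CPM in AA and 4.48, 6.10 and 5.20 CPM in DMSO, from 83 to 197 reads. AA was above DMSO in every library, and the difference was 0.71 on the log2 scale (SE 0.23, limma adjusted p = 0.0378). This call was lost in the median-equalised fit (0.45, adjusted p = 0.127) and in 4 of the 6 fits that left out a library (adjusted p up to 0.147, without AA replicate 2 or 3 or DMSO replicate 1 or 3). It was also lost with TMM factors (adjusted p = 0.0888), after quantile normalization (0.199) and without the low-value filter (0.10). In the library-set fit, where the call was lost too, the log2 fold change was 0.71.

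Tagln reached 9.88% ± 1.37 of the CPM of Tagln2 in AA and 10.1% ± 1.48 in DMSO (SD, n = 3 each; exact permutation p = 0.80, adjusted 0.80). The libraries of the groups overlapped. The end of Tagln overlaps Pcsk7 on the other strand, which stood at 0.01 on the log2 scale (limma adjusted p = 0.978). In GENCODE M21 Tagln also overlaps the antisense gene Gm48529, Tpm4 overlaps Gm26586 and Gm16091, and the last 49 bases of Vil1 overlap Usp37, all on the other strand. The strand setting of the counting is not given, so reads of such partners cannot be told apart. Of the 4 tested transgelin and calponin genes, 3 were higher. The third was Cnn2, a calponin of non-muscle cells, at 14.7 ± 1.70 CPM in AA and 7.75 ± 0.908 CPM in DMSO (log2 fold change 0.84, limma adjusted p = 0.0109). Its call was lost in the library-set fit, where the log2 fold change was 1.02, and without AA replicate 2.

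Because Tagln, Myl9 and Tpm2 are also genes of smooth muscle, markers of other cells are given beside them. The 15 smooth muscle and pericyte markers summed to 316 to 335 CPM in AA and 180 to 273 CPM in DMSO (6 of 12 tested were higher, 0 lower). The contractile marker Myh11 stood at 5.86, 4.15 and 2.01 CPM in AA and 1.17, 2.60 and 3.76 CPM in DMSO, which overlapped. The pericyte receptor gene Pdgfrb, which passed as higher, stood at 39.3, 44.2 and 37.7 CPM in AA and 15.0, 23.1 and 22.0 CPM in DMSO. Cnn1, the smooth muscle calponin gene, had 0.83 to 1.87 CPM in AA and 0.03 to 0.69 CPM in DMSO, and Actg2 and Myocd had 0 reads in some libraries. The 9 fibroblast markers summed to 168 to 192 CPM in AA and 89.0 to 135 CPM in DMSO (3 of 7 tested were higher), with Lum at 0 reads in DMSO replicate 2. The 10 endothelial markers summed to 419 to 495 CPM in AA and 273 to 410 CPM in DMSO (3 of 10 higher). Distal nephron markers summed to 383 to 1434 CPM in AA, the highest value being that of AA replicate 2, and to 246 to 554 CPM in DMSO (3 of 11 higher). Those higher were Aqp2, Cldn19 and Fxyd4, with log2 fold changes of 2.16, 1.65 and 1.58. Umod gave the largest part of that sum. Without it the other 11 summed to 223 to 626 CPM in AA and 153 to 261 CPM in DMSO, which overlapped. Leukocyte sums were 222 to 298 CPM in AA and 213 to 318 CPM in DMSO, with 3 of 8 tested markers higher and Cd3e at 0 reads in DMSO replicate 1. Csf1r, a macrophage receptor gene, gave the largest part of that sum, at 172, 111 and 151 CPM in AA and 159, 253 and 202 CPM in DMSO, and did not pass (log2 fold change -0.50, limma adjusted p = 0.0773). Without it the other 9 leukocyte markers summed to 111 to 126 CPM in AA and 53.1 to 65.4 CPM in DMSO, with no overlap. Cd68, a macrophage marker, had 20.1, 26.6 and 38.4 CPM in AA and 1.17, 1.25 and 0.376 CPM in DMSO (3.91 on the log2 scale, adjusted p = 1.26e-05). Lyz2 and Cd74 of that list also passed as higher. Its markers Ptprc, Adgre1, Itgam and C1qa did not pass, with log2 fold changes of 0.31, 0.45, 0.47 and 0.59 (limma adjusted p = 0.255, 0.26, 0.277 and 0.129). Csf1r, Cd68 and Kap were singled out after their values were seen. Podocyte sums were 88.5 to 137 CPM in AA and 58.7 to 81.5 CPM in DMSO, with 1 of 6 higher. All these counts of higher markers stand beside 22.3% of all tested genes called higher. The higher calls of markers, and the calls of proximal tubule markers, were not repeated in the median-equalised and library-set fits. A look for lower genes covered the lists with no lower gene here and the markers other than those of the proximal tubule. At an unadjusted p under 0.05 only 1 leukocyte marker was lower among them, and voom called 0 lower. The part of these cells in the results for the 10 genes was not tested.

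Flna (chromosome X, 74223461 to 74249820, minus strand) encodes filamin A, which crosslinks filaments into networks and ties them to membrane receptors. It had 103, 124 and 97.0 CPM in AA and 42.2, 68.8 and 49.6 CPM in DMSO. The lowest AA library stood above the highest DMSO library, and the log2 fold change was 1.02 (SE 0.18, limma adjusted p = 0.00241). It was 1.10 in the library-set fit (adjusted p = 0.0214), and of the 17 settings only the one without the low-value filter lost it (adjusted p = 0.0781).

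Of 20 other tested crosslinkers and adhesion linkers, 8 were higher and 1 was lower, with a median of 0.28. Vasp, which promotes filament elongation at the leading edge, stood at 53.9 ± 2.92 CPM in AA and 24.2 ± 5.04 CPM in DMSO (log2 fold change 1.14, limma adjusted p = 0.000896). The alpha-actinin gene Actn1 had 89.7 ± 5.08 CPM in AA and 51.2 ± 5.53 CPM in DMSO (0.80, adjusted p = 0.00194). The lower gene was Tln2, a talin that links integrins to actin, with 94.6 ± 28.6 CPM in AA and 245 ± 77.2 CPM in DMSO (log2 fold change -1.35, adjusted p = 0.00241), a call lost in the library-set fit (-0.91, adjusted p = 0.0635). Counted with Flna, the list had 9 higher and 1 lower genes. The median-equalised fit had 6 higher and 3 lower, the library-set fit 5 and 0.

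Myl9 (chromosome 2, 156775420 to 156781658, plus strand) encodes a regulatory light chain of myosin II whose phosphorylation starts contraction. It had 20.4, 15.0 and 11.9 CPM in AA and 6.99, 11.5 and 11.3 CPM in DMSO. The lowest AA library lay just above the highest DMSO library, and the log2 fold change of 0.62 (SE 0.26) did not pass (limma adjusted p = 0.0862). No alternative setting brought it past the threshold.

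The related light chain genes Myl12a and Myl12b passed. Myl12a had 144, 181 and 148 CPM in AA and 62.4, 61.8 and 61.0 CPM in DMSO (log2 fold change 1.33, SE 0.13, limma adjusted p = 8.45e-05). Myl12b had 104, 107 and 103 CPM in AA and 71.7, 82.1 and 68.6 CPM in DMSO (0.50, adjusted p = 0.0148). That call was lost in the median-equalised fit (adjusted p = 0.189), in the library-set fit (log2 fold change 0.60) and without AA replicate 2. The essential light chain gene Myl6 had 195, 194 and 186 CPM in AA and 122, 158 and 136 CPM in DMSO (0.48, adjusted p = 0.0216). Its call was lost in the median-equalised fit (adjusted p = 0.235) and in the library-set fit (log2 fold change 0.50). It was also lost without any 1 of AA replicates 1, 2 and 3 and DMSO replicate 1. Myh9, the heavy chain gene of non-muscle myosin IIA, stood at 773, 680 and 694 CPM in AA and 343, 540 and 382 CPM in DMSO (0.79, adjusted p = 0.00773).

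As a share of the 3 regulatory light chain genes, Myl9 came to 5.70% ± 1.68 of the CPM in AA and 6.78% ± 1.61 in DMSO (SD, n = 3 each; exact permutation p = 0.50, adjusted 0.583), and the groups overlapped. Of the 17 other tested genes of non-muscle myosin II and its control, 9 were higher and 1 was lower. Rhob and Rhoc, which encode small GTPases that control actin contractility, stood at 159 ± 44.1 and 91.6 ± 5.76 CPM in AA and 52.8 ± 16.7 and 41.4 ± 0.979 CPM in DMSO (1.59 and 1.13 on the log2 scale, limma adjusted p = 0.000931 and 0.00017). Rock2, a kinase that raises light chain phosphorylation, had 257 ± 19.7 CPM in AA and 105 ± 18.6 CPM in DMSO (log2 fold change 1.30, limma adjusted p = 0.00017). The lower gene, Myh14, the heavy chain of myosin IIC, stood at -0.83 on the log2 scale (adjusted p = 0.039) and was named after its values were seen. Its groups overlapped, and its call was lost in the library-set fit (log2 fold change -0.89) and without any 1 of AA replicates 2 and 3 and DMSO replicates 2 and 3. The median-equalised fit had 6 higher and 3 lower genes in this list, the library-set fit 5 and 0.

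Vil1 (chromosome 1, 74409376 to 74435559, plus strand) encodes villin 1, which bundles the actin core of microvilli and can sever filaments when calcium rises. It had 473, 429 and 419 CPM in AA and 336, 473 and 400 CPM in DMSO. The ranges overlapped, the log2 fold change was 0.14 (SE 0.15, limma adjusted p = 0.517), and it stayed between -0.12 and 0.28 over all settings without passing. A value that misses the threshold does not show that the level was equal.

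The genes outside the 10 with values most like those of Vil1 over the 6 libraries were Szrd1, Ap2a1 and Ctbp1, with Pearson correlations of 0.996, 0.995 and 0.993, as a description of libraries that share their depth and composition. Their groups overlapped too.

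Of the 7 tested genes of the villin and gelsolin family, Vil1 included, 3 were higher and 1 was lower. Scin and Gsn, whose products sever and cap filaments, stood at 34.9 ± 15.6 and 24.4 ± 2.77 CPM in AA and 11.2 ± 1.28 and 12.6 ± 1.02 CPM in DMSO, with log2 fold changes of 1.48 and 0.90 (limma adjusted p = 0.00222 and 0.00406). Capg, a capping protein gene, was higher by 0.87 on the log2 scale (limma adjusted p = 0.0117). Its call was lost in the median-equalised fit (adjusted p = 0.0559), in the library-set fit (log2 fold change 1.03) and without AA replicate 2. Vill, a villin-like gene, had 81.9 ± 11.5 CPM in AA and 160 ± 49.6 CPM in DMSO (-0.92, adjusted p = 0.00638), lost in the library-set fit (-0.59, adjusted p = 0.153).

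The brush border list held more lower than higher genes. Of 32 tested genes besides Vil1, 1 was higher and 5 were lower, against 22.3% and 8.66% of all tested genes. With Vil1 the median log2 fold change was -0.26, beside 0.21 for all genes. In 12 of these 33 genes every AA library lay below every DMSO library (13.0% of all tested genes). In 2 every AA library lay above (33.4% of all tested genes). Mep1b, a metalloprotease of the brush border membrane, had 196, 209 and 306 CPM in AA and 712, 687 and 502 CPM in DMSO (log2 fold change -1.43, SE 0.20, limma adjusted p = 0.000547). Pdzk1, a scaffold for apical transporters, had 629 ± 32.1 CPM in AA and 1335 ± 275 CPM in DMSO (-1.07, adjusted p = 0.00141). Cobl, an actin nucleator, had 66.9 ± 2.12 CPM in AA and 109 ± 9.63 CPM in DMSO (-0.69, adjusted p = 0.00292).

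The other lower genes, named after their values were seen, were Eps8, which caps filaments at microvillus tips (-0.73), and the peptidase gene Ace (-0.81). Both calls were lost in the library-set fit (log2 fold changes of -0.51 and -0.66). The higher gene was Msn, the moesin gene of the family that ties filaments to the membrane, at 280 ± 41.0 CPM in AA and 162 ± 15.4 CPM in DMSO (0.78, limma adjusted p = 0.00289). Ezr, the ezrin gene and the main member of that family in microvilli, had 464, 448 and 422 CPM in AA and 319, 433 and 306 CPM in DMSO and did not pass (0.35, adjusted p = 0.112). It passed as higher after quantile normalization (0.48, adjusted p = 0.0328) and without DMSO replicate 2 (0.51, adjusted p = 0.0211). In the whole list, the median-equalised fit had 1 higher and 17 lower genes, the library-set fit 1 and 3.

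**Figure D3:**
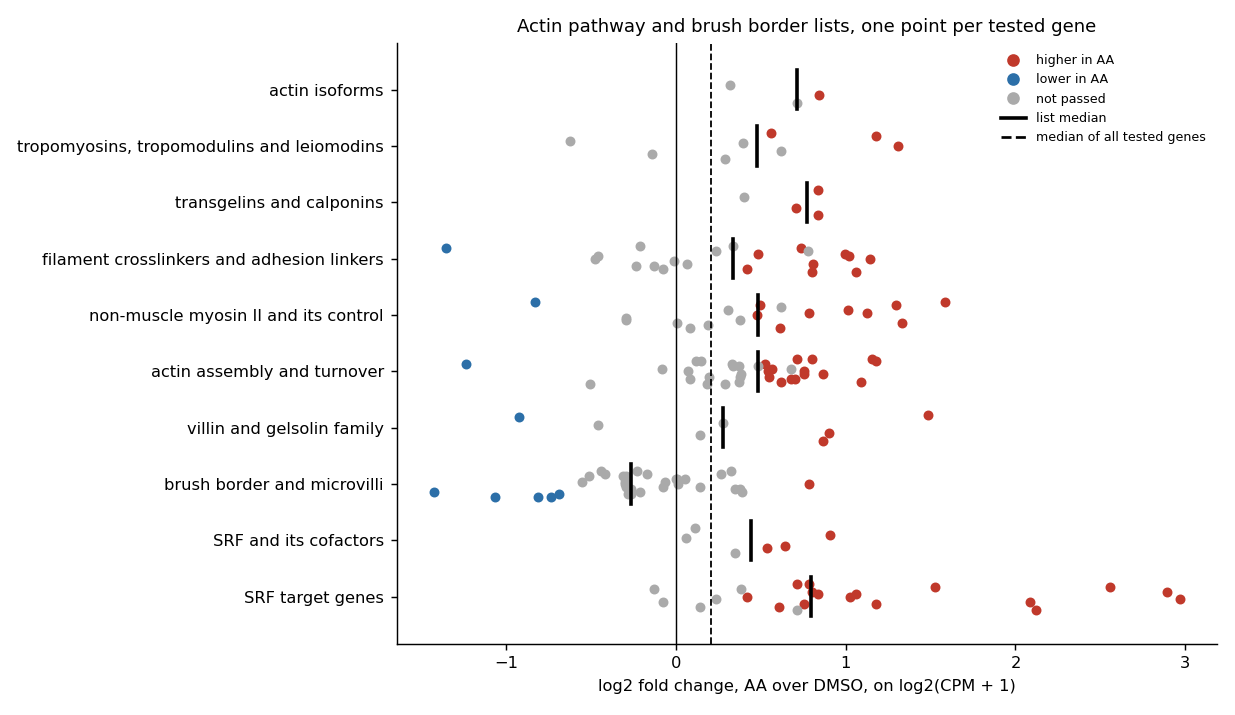
Log2 fold change, AA over DMSO on the log2(CPM + 1) scale, of each tested gene in 10 lists; red and blue points passed as higher or lower, black bars are list medians and the dashed line is the median of all tested genes (0.21). The brush border list has its median at -0.26 and the list of SRF targets at 0.79.

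Genes of filament assembly and turnover mostly rose or did not pass. Of 33 tested, 15 were higher and 1 was lower, with a median of 0.48. The cofilin gene Cfl1 had 276 ± 16.1 CPM in AA and 169 ± 18.1 CPM in DMSO (log2 fold change 0.71, limma adjusted p = 0.00284). The Arp2/3 complex genes Arpc1b and Arpc5 had log2 fold changes of 1.15 and 0.76 (adjusted p = 0.00191 and 0.00346). The lower gene was the formin gene Diaph2, at 25.6 ± 1.23 CPM in AA and 61.9 ± 6.07 CPM in DMSO (-1.24, adjusted p = 0.000199). The median-equalised fit had 8 higher and 2 lower, the library-set fit 6 and 1.

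SRF itself and its target genes were also read. Srf had 27.0, 32.8 and 32.6 CPM in AA and 18.2, 20.0 and 24.6 CPM in DMSO (log2 fold change 0.54, SE 0.18, limma adjusted p = 0.0385). This call was lost in the median-equalised fit (adjusted p = 0.217) and in the library-set fit (log2 fold change 0.30). It was also lost without any 1 of AA replicates 2 and 3 and DMSO replicates 1 and 2. Mkl1 and Mkl2, which encode the MRTF cofactors, had log2 fold changes of 0.11 and 0.06 (adjusted p = 0.744 and 0.792), and of -0.15 and -0.20 in the median-equalised fit. Elk4 and Elk3, the genes of the alternative cofactors that answer to MAP kinases, had log2 fold changes of 0.64 and 0.91 (adjusted p = 0.00432 and 0.0125). Both calls were lost in the library-set fit (log2 fold change 0.52 for Elk4 and 0.84 for Elk3), that of Elk3 also without AA replicate 2. Of these 6 tested genes 3 were higher and 0 were lower.

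Of 21 tested SRF target genes other than Vil1, 16 were higher and 0 were lower, with a median of 0.80. The smallest adjusted p-values belonged to the early genes Junb (104 ± 18.8 CPM in AA and 13.0 ± 1.15 CPM in DMSO), Ier2, Egr1 and Fos, with log2 fold changes of 2.89, 2.12, 2.56 and 2.97 (limma adjusted p up to 0.000116). These early genes also answer to other factors. The list shares genes with those above, among them Tpm3, Myh9, Cfl1, Cnn2 and Actn1. In the whole list, the median-equalised fit had 14 higher genes and the library-set fit 10, with 0 lower in both.

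Compared per kilobase of merged exons in GENCODE M21, the 10 genes kept the order Actb, Actg1, Vil1, Tagln2 and Tpm4 at the top in both groups. The levels were 538 ± 36.9, 353 ± 60.0, 124 ± 7.99, 45.6 ± 10.3 and 34.9 ± 8.95 CPM per kilobase in AA, and 431 ± 17.0, 197 ± 35.5, 114 ± 19.2, 25.0 ± 2.69 and 13.6 ± 0.943 CPM per kilobase in DMSO (SD, n = 3 each). Tagln2 and Tpm4 overlapped in AA. Below them stood Myl9, Flna and Tpm1 in AA, at 13.6, 11.5 and 8.56 CPM per kilobase, and Myl9, Tpm1 and Flna in DMSO, at 8.53, 6.56 and 5.69. Myl9 and Flna overlapped in AA, as did Myl9 with Tpm1 and Tpm1 with Flna in DMSO. Tagln (4.65 in AA and 2.65 in DMSO) and Tpm2 (1.37 in AA and 1.60 in DMSO) were lowest.

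**Figure D4:**
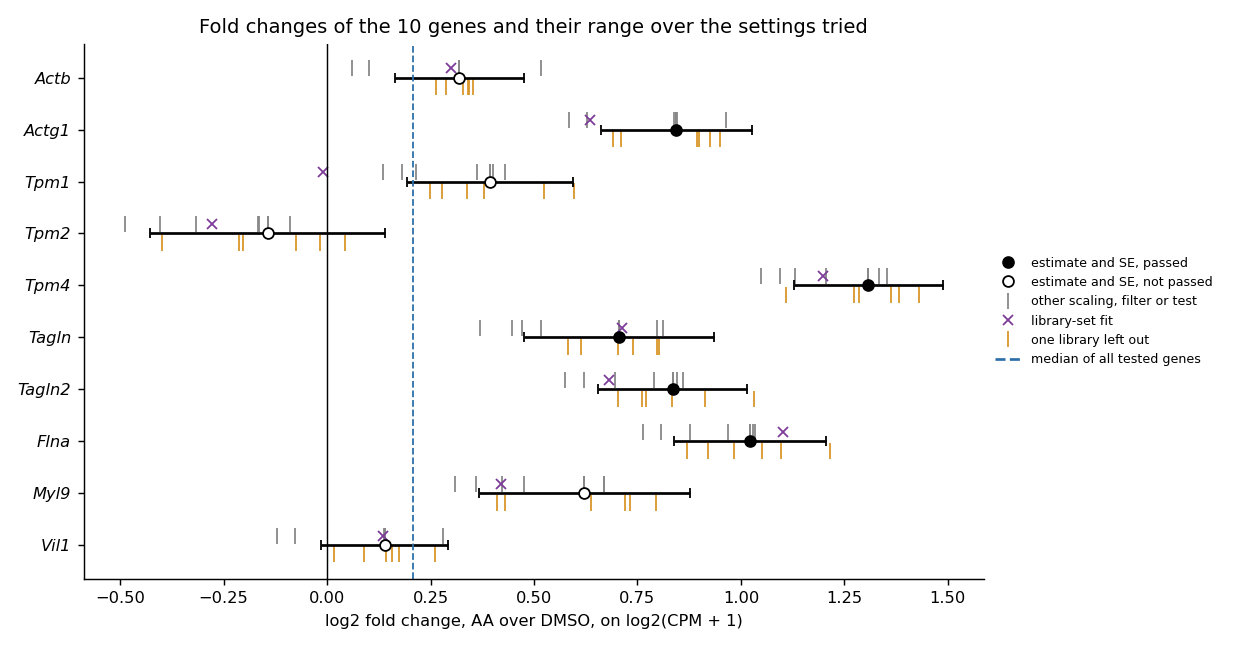
Log2 fold change of the 10 genes, AA over DMSO on the log2(CPM + 1) scale, with SE (filled where the gene passed), and the values under other settings; the dashed line is the median of all tested genes (0.21). Tpm4 lies between 1.05 and 1.43 in every setting, while the values of Vil1 lie between -0.12 and 0.28.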

How the data were processed

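Tubule RNA of 3 AA and 3 DMSO libraries was read from a single table. The authors deposited log10 values, which the numbers themselves show to be log10(CPM + 1). Per the submitters' processing notes, bcl2fastq 2.19 and kallisto (role and version not given in the sources used here) and build mm10 were used; libraries were TruSeq Stranded mRNA, per the labels' protocols. The values were turned back to CPM, in which 100% of values were whole reads within 0.1 read, and logged again as log2(CPM + 1).

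A gene was tested if 3 or more libraries reached 1 CPM, with limma 3.58.1 (variance trend, two-sided) in R 4.3.3, and p-values were adjusted over all 14311 tested genes by the Benjamini-Hochberg method; SE is the moderated standard error. The procedure was run on simulated reads that held no shift over all genes and no library sets. That run cannot tell how such features affect the calls. The 10 genes, the lists, the motifs and the ratios between genes were chosen with earlier results of these data known. Named were the 10 genes, up to 4 called genes per list with the smallest adjusted p, a fixed set of relatives (Tpm3, Acta2, Actg2, Myl6, Myl12a, Myl12b, Myh9, Ezr, Srf, Mkl1 and Mkl2) and the 3 genes most like Vil1; genes outside this rule are marked where named, apart from markers. Coordinates and exon lengths came from GENCODE M21. The alternatives tried are given in the closing section. The values of 1 marker gene are not reported here.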

Additional observations from a re-analysis of the deposited data

How the results depend on the processing

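Over the 17 alternative settings 0 of the 10 genes passed as lower. None of the 40 called genes named in the text, cell markers left out, changed sign. Of the 10 genes, 2 passed as higher in the library-set fit and 1 (Tpm4) without the low-value filter; leaving out a library gave 4 to 5. Over all tested genes, 1888 were higher and 2095 lower with TMM factors, 1606 and 2422 in the median-equalised fit, 1822 and 2077 after quantile normalization, 1058 and 423 in the library-set fit, and 1009 and 366 without the filter. Leaving out a library gave 1842 to 2839 higher and 803 to 1141 lower genes, both lowest without AA replicate 2. Leaving out the filter kept the log2 fold change of each tested gene, such as 1.02 for Flna, and changed only its SE and p-values. The causes of these shifts were not tested. Of the 40 called genes, 22 were lost without the filter, among them Myh9, Msn, Pdzk1, Mep1b, Rhob, Scin, Arpc1b and Arpc5, and 16 in the library-set fit. Quantile normalization lost 6 of them (Capg, Cnn2, Elk3, Srf, Tagln and Tmod3). TMM factors lost 5 (Myl12b, Myl6, Srf, Tagln and Tmod3), and a robust variance lost 1 (Myh14). Same-numbered libraries did not deviate together (correlations of -0.109, -0.156 and -0.015). With a replicate block 2768 genes were higher, 5 of the 10 among them, and 4 named calls were lost (Myh14, Myl6, Srf and Tmod3). Tpm2, Tagln and Myl9 had the fewest reads of the 10 genes, at 42 to 357 per library. The part of read numbers in their spread was not tested.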
